A study of Mus musculus with 46 samples.

Results

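Control microglia collected 6 hr after LPS (n = 5 libraries) were compared with control microglia of mice given no LPS, called 0 hr (n = 3 libraries). These 8 libraries were chosen by their sample titles, out of 24 libraries of sorted cells and 46 libraries in the series. The mice were C57BL/6, 2 months old and on vehicle chow, and LPS was injected intraperitoneally at 0.33 mg/kg. Injections of PBS as well as of LPS are described, and mice at 0 hr as given no LPS, but whether the PBS went to the mice at 0 hr is not stated. Myeloid cells were taken from whole hemispheres and sorted by FACS as CD11b+CD45int, the gate used for microglia, before RNA was sequenced. This account of the material is that of the study's methods and of the tissue label, whereas the extract protocol in the labels, the same for all samples of the series, describes frozen tissue of microdissected brain regions. Control microglia at 24 hr after LPS (n = 4) are described beside them, and WM repopulating cells at 0 hr and 6 hr (n = 4 each) serve for a test of the response. WM repopulating cells are myeloid cells that refilled the brain after depletion, and came from mice fed the CSF1R inhibitor PLX3397 at 600 ppm over 14 days and then allowed a recovery of 28 days.

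LPS is a component of the outer membrane of gram-negative bacteria. It is bound by CD14 and by the receptor TLR4 with its partner MD-2, which signal through MyD88 to NF-kB and through TRIF to type I interferon. NF-kB drives cytokines, chemokines and its own inhibitors, whereas interferon acts back on cells through STAT2 and IRF9 to turn on interferon-stimulated genes. Resting microglia are known by genes such as P2ry12, Tmem119 and Cx3cr1, and LPS given in the periphery is known to reach them mostly through blood-borne signals.

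The libraries held 6.42 M to 6.89 M reads at 0 hr and 5.24 M to 7.17 M reads at 6 hr, and a read on a gene of 2 kb was worth 0.0697 to 0.0955 FPKM in the 6 hr libraries. FPKM is the number of reads of a gene per kilobase of its length, scaled to the library's total reads. Pearson correlations of log2(FPKM + 1) across genes were 0.962 to 0.967 between 0 hr libraries and 0.917 to 0.977 between 6 hr libraries. Replicate 2 stood apart from the other 6 hr libraries, with correlations of 0.917 to 0.958 to them, against 0.960 to 0.977 among the other 4. Results that change without it by more than the limits given below are given with and without it. Smaller changes are mostly left out, as for Tnf (log2 fold change 1.13, and 0.78 without it) and Pfkfb3 (1.99, and 1.48 without it). Fold changes are on the log2(FPKM + 1) scale, 6 hr minus 0 hr, with the standard error of limma's fit (±), and are too small for genes of low FPKM. Genes with an adjusted p under 0.05 were called, and are said to have risen or fallen. Where leaving out 1 library changes the fold of a named gene by more than 1.5 times, or its call, its value without that library follows, and so does any other setting that changes its call, where "the 8 libraries alone" means a fit of the control 0 hr and 6 hr libraries without the other groups.

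Microglia markers were abundant in the sorted cells, beside neutrophil markers. The summed FPKM of 10 microglia markers was 26187 to 30706 at 0 hr and 12714 to 14860.3 at 6 hr, with no overlap between the times. The summed FPKM of 14 neutrophil markers was 9225, 1941 and 5838 at 0 hr and 978 to 5917 at 6 hr. The neutrophil gene S100a8 exceeded P2ry12 in 0 hr replicate 1 (4733 against 3131 FPKM), in 0 hr replicate 3 (2753 against 2650 FPKM) and in every 6 hr library. C1qa, a subunit of complement C1q, was the most abundant of the microglia markers over the 8 libraries though not at 0 hr alone. It held 5958, 7307 and 7670.2 FPKM at 0 hr and 5459.9, 6270.1, 5489, 5633 and 4962 FPKM at 6 hr (log2 fold change -0.32 ± 0.24, adjusted p = 0.30). The genes of the gate itself did not pass the test. Itgam, which encodes CD11b, held 108, 138 and 138 FPKM at 0 hr and 174, 140.1, 163, 156 and 146 FPKM at 6 hr (log2 fold change 0.29 ± 0.16, adjusted p = 0.15). Ptprc, which encodes CD45, had a log2 fold change of 0.37 ± 0.16 (adjusted p = 0.071), which became 0.42 with an adjusted p of 0.047 without 6 hr replicate 3.

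At 6 hr after LPS, 2714 genes were higher and 2676 genes lower than at 0 hr, out of 12684 tested. Called genes thus made up 42.5% of all genes tested, with 21.4% higher and 21.1% lower, and these shares are the background for the counts below. A log2 fold change above 1 was reached by 1213 genes (9.56%) and one below -1 by 1168 genes (9.21%). The 0 hr and 6 hr libraries did not overlap in 4837 genes (38.1%). The median log2 fold change of all genes tested was 0.01. In mean FPKM, 244 called genes rose at least 10-fold and 369 called genes fell at least 4-fold. Genes with a mean of 0 at 0 hr, such as Timp1, have no fold and are not among these rises. Genes with a mean of 0 at 6 hr are likewise not among the falls. Without 6 hr replicate 2, 2595 genes were higher and 2506 lower, and 4848 of these 5101 genes were also called with it.

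**Figure D1:**
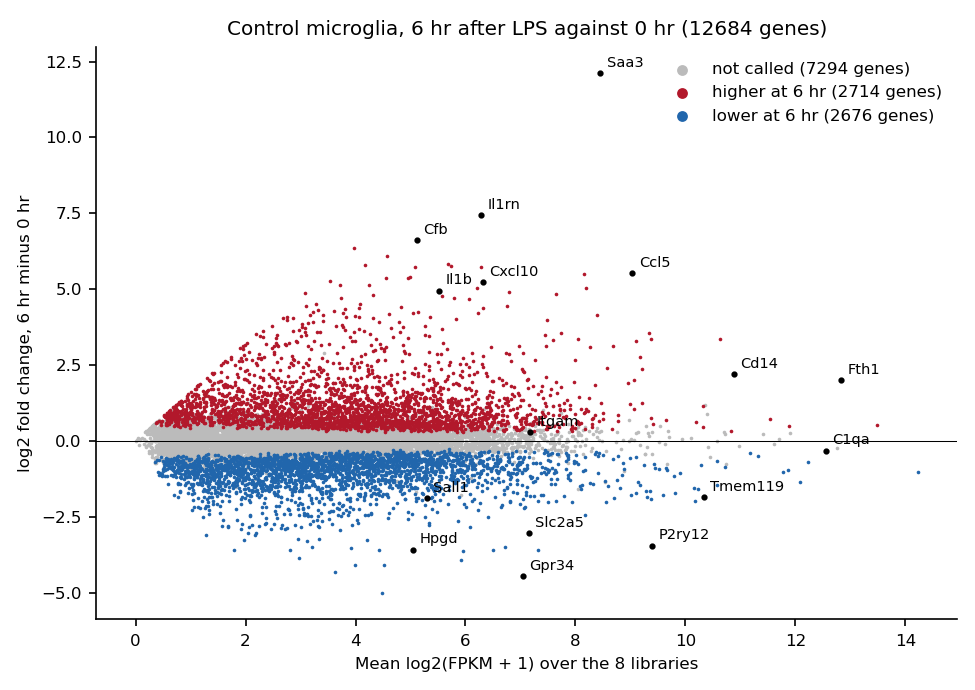
Each point is 1 of 12684 genes, with its mean log2(FPKM + 1) over the 8 libraries on the x axis and its log2 fold change, 6 hr minus 0 hr, on the y axis. Red genes were higher (2714), blue genes lower (2676) and grey genes not called (7294), and Saa3 lies farthest above 0 with 12.12, whereas Gpr34 and P2ry12 lie among the lowest of the abundant genes.

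The largest rises without overlap between the groups were those of Saa3, Il1rn, Cfb, Timp1 and Irg1. Saa3, an acute phase apolipoprotein (Entrez 20210, chr7:46711998-46719615, the whole gene in GRCm38 as for the positions that follow), held 0.28, 0 and 3.81 FPKM at 0 hr and 7845, 9196, 5923, 11196 and 7643 FPKM at 6 hr (log2 fold change 12.12 ± 0.47, adjusted p = 5.3e-15, and 12.82 without 0 hr replicate 3). Il1rn, the antagonist of the IL-1 receptor (chr2:24336860-24351491), held 2.27, 0.863 and 3.82 FPKM at 0 hr and 495, 1954, 142, 705 and 463 FPKM at 6 hr (log2 fold change 7.45 ± 0.53, adjusted p = 2.1e-10). Cfb, complement factor B of the alternative pathway (chr17:34856374-34862514), held 0.704, 1.37 and 0.907 FPKM and 284, 103, 172, 191 and 272 FPKM (log2 fold change 6.61 ± 0.44, adjusted p = 8.2e-11). All 6 hr libraries lay above all 0 hr libraries in these genes.

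Timp1, an inhibitor of matrix metalloproteinases, was listed at 0 in all 0 hr libraries and held 68.3, 71.97, 49.4, 117 and 128 FPKM at 6 hr. Irg1 (Acod1), the enzyme that makes itaconate, went from 2.24, 0.505 and 0 FPKM to 88.3, 505, 37.6, 94.9 and 121 FPKM (log2 fold change 6.09 ± 0.60, adjusted p = 2.3e-08), with the highest value in replicate 2. The other genes among the 15 largest rises whose groups did not overlap were Mt2 (5.84 ± 0.84, 5.05 without 6 hr replicate 2 and 6.57 without 6 hr replicate 3), Slfn4 (5.78 ± 0.33), Cd300lf (5.76 ± 0.48, 5.10 without 0 hr replicate 2), Ms4a4a (5.74 ± 0.60, 6.53 without 0 hr replicate 1 and 4.79 without 0 hr replicate 3) and Ifi205 (5.72 ± 0.43), followed by Ccl5 (5.52 ± 0.46), Hp (5.51 ± 0.53, 6.23 without 0 hr replicate 1 and 4.58 without 0 hr replicate 2), Msr1 (5.39 ± 0.32), F10 (5.36 ± 0.48) and AA467197 (5.35 ± 0.39). They include a metallothionein (Mt2), a chemokine (Ccl5), haptoglobin (Hp), a scavenger receptor (Msr1) and coagulation factor X (F10). Monocyte markers, given below, had a summed FPKM of 160.2 to 474 at 0 hr and 1727 to 3348 at 6 hr. The part of monocytes in these largest rises was not tested. At 24 hr, Saa3 held 1663, 1342, 766 and 1450.3 FPKM, Il1rn 11.5, 14.9, 6.5999 and 14.5 FPKM and Timp1 1.61, 0.145, 0.793 and 2.21 FPKM.

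The largest falls without overlap between the groups included those of Gpr34 and of the immunoglobulin heavy chain. Gpr34, a receptor for lysophosphatidylserine that marks microglia (Entrez 23890, chrX:13622650-13640859), held 859, 1109.8 and 774 FPKM at 0 hr and 40.5, 26.5, 79.4, 24.5 and 50.9 FPKM at 6 hr (log2 fold change -4.45 ± 0.29, adjusted p = 6.0e-11). The immunoglobulin heavy chain gave 3 of the 15 largest falls, namely the joining segments Ighj1 (-5.02 ± 0.62) and Ighj4 (-4.33 ± 0.71, -4.94 without 6 hr replicate 4) and the constant region of IgM, Ighm (-3.59 ± 0.28). Ighm held 452, 499 and 349.7 FPKM at 0 hr and 26.1, 54.5, 44.7, 31.7 and 24.5 FPKM at 6 hr, and Ighj4 was listed at 0 in 2 of the 6 hr libraries. Tnfrsf17 (-3.87 ± 0.30), the receptor BCMA of B lineage cells, and Bank1 (-3.597 ± 0.29), a B cell scaffold protein, were also among the 15. The B cell markers of the lymphocyte list did not fall together. Cd79b fell from 56.01, 47.9 and 46.4 FPKM to 12.5, 4.31, 10.3, 4.65 and 7.65 FPKM (log2 fold change -2.62 ± 0.28, adjusted p = 9.1e-08), whereas Cd79a, the other chain of the same signaling pair, held 0.448, 0 and 0.117 FPKM at 0 hr and 0.619, 0.708, 0.325, 0.21 and 2.73 FPKM at 6 hr (log2 fold change 0.58 ± 0.30, adjusted p = 0.13, and called with a pseudocount of 0.1 with an adjusted p of 0.047), and Ms4a1 was too low to be tested. Which cells these transcripts came from was not tested.

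Among the other large falls, Slc46a3 (-4.099 ± 0.40) is a lysosomal transporter, Hpgd (-3.58 ± 0.32) the enzyme that inactivates prostaglandins and Dhrs3 (-3.59 ± 0.38) a retinaldehyde reductase. Dhrs3 held 878, 806 and 605 FPKM at 0 hr and 66.4, 18.7, 159, 43.3 and 102 FPKM at 6 hr, and all 6 hr libraries lay below all 0 hr libraries. Thrsp (-4.09 ± 0.31), Ypel3 (-3.93 ± 0.31) and Chst8 (-3.61 ± 0.27) fell as well, as did Snx29 (-3.51 ± 0.22), Gm10790 (-3.59 ± 0.21) and Gm5086 (-3.52 ± 0.39).

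Of the Toll-like receptor signaling list, with the receptors and adaptors for LPS, 10 of 27 tested genes rose (37%) and 5 fell (18.5%), with a median log2 fold change of 0.21. The share that fell was near the background. Cd14, the coreceptor that hands LPS to TLR4, held 771, 775 and 650.3 FPKM at 0 hr and 2450.3, 12769.6, 1457, 4149.9 and 2161 FPKM at 6 hr (log2 fold change 2.19 ± 0.39, adjusted p = 7.6e-05). Tlr2, a receptor for bacterial lipoproteins, held 80.8, 73.1 and 81.4 FPKM and 335, 2504, 185, 889 and 243 FPKM (log2 fold change 2.68 ± 0.49, adjusted p = 9.7e-05). Both genes were highest in replicate 2, and without it their log2 fold changes were 1.70 for Cd14 and 2.11 for Tlr2.

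Tlr4, the LPS receptor itself, held 14.1, 22.99 and 14.2 FPKM at 0 hr and 10.97, 3.54, 16.4, 9.27 and 13.003 FPKM at 6 hr (log2 fold change -0.73 ± 0.30, adjusted p = 0.050, above the threshold), with overlapping groups. It lies at the threshold, since its adjusted p was 0.036 after quantile normalization, 0.046 after median of ratios scaling, 0.048 with the filter set on control libraries alone, and 0.014 or 0.035 without 6 hr replicate 3 or 5. Ly96 (-1.03 ± 0.19), which encodes MD-2, and the receptors Tlr12 (-2.18 ± 0.26), Tlr5 (-0.86 ± 0.29, not called without 0 hr replicates 2 or 3 or with the 8 libraries alone with an adjusted p of 0.058 to 0.22), Tlr3 (-0.62 ± 0.18, not called with the 8 libraries alone with an adjusted p of 0.086) and Tlr9 (-0.61 ± 0.17) fell, whereas the adaptor Myd88 (1.39 ± 0.22) and the inhibitory kinase Irak3 (1.95 ± 0.39) rose. Tlr12 was lower in all 6 hr libraries than in any 0 hr library, at 12.5, 12.2 and 12.3 FPKM at 0 hr and 2.38, 2.76, 2.27, 1.58 and 1.08 FPKM at 6 hr.

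NF-kB pathway genes rose in majority. Of the list, 13 of 23 tested genes rose (56.5%) and 3 fell (13%), with a median log2 fold change of 1.15. Ikbke, an IkB kinase that phosphorylates IRF3 and IRF7, held 1.39, 0.408 and 0.584 FPKM at 0 hr and 39.6, 71.3, 27.9, 58.7 and 37.6 FPKM at 6 hr (log2 fold change 4.703 ± 0.37, adjusted p = 8.4e-10). Bcl3, a nuclear IkB protein, held 8.19, 1.66 and 0.679 FPKM and 45.995, 187, 28.3, 58.9 and 37.4 FPKM (log2 fold change 4.04 ± 0.48, adjusted p = 4.2e-07, and 4.75 without 0 hr replicate 1). Nfkbia, the inhibitor IkBa and a direct target of NF-kB, held 769.7, 766 and 802 FPKM and 1519.6, 4239, 1063, 1737 and 1290.4 FPKM (log2 fold change 1.15 ± 0.25, adjusted p = 7.9e-04). In these genes the groups did not overlap, and replicate 2 was the highest library of the 5.

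Tnip3 (3.22 ± 0.39), which binds the inhibitor A20, and the subunits Relb (1.79 ± 0.45, not called with the 8 libraries alone with an adjusted p of 0.050) and Nfkb2 (1.23 ± 0.42, not called without 0 hr replicates 1 or 2 or with the 8 libraries alone with an adjusted p of 0.052 to 0.12) rose. The genes that fell were Nfkbid (-0.999 ± 0.22), Nfkb1 (-0.62 ± 0.25, not called without 0 hr replicates 1, 2 or 3 or 6 hr replicates 1, 3, 4 or 5, with the 8 libraries alone, with no filter, with no variance trend or with the replicate block with an adjusted p of 0.055 to 0.19) and Ikbkg (-0.54 ± 0.18, not called without 0 hr replicate 1 or with the 8 libraries alone with an adjusted p of 0.059 to 0.10), of which Nfkb1 had overlapping groups. Of the whole list, 1 of its genes fell without 0 hr replicate 1. With only the 0 hr and 6 hr control libraries in the fit, 8 genes rose and 1 fell.

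Cytokine genes rose together, with a wide spread between the 6 hr libraries. Of the list, 13 of 17 tested genes rose (76.5%) and 1 fell (5.88%), with a median log2 fold change of 1.13. Tnf held 116, 92.5 and 113 FPKM at 0 hr and 205, 637, 145, 217 and 174 FPKM at 6 hr (log2 fold change 1.13 ± 0.32, adjusted p = 0.0057). Il1b, the precursor of IL-1b, held 1.68, 6.01 and 7.39 FPKM and 98.1, 1238, 87.5, 131 and 89.3 FPKM (log2 fold change 4.95 ± 0.62, adjusted p = 7.7e-07, and 4.23 without 6 hr replicate 2). Il12b, the p40 subunit of IL-12 and IL-23, held 0.534, 1.04 and 0.16 FPKM and 11.3, 1439, 11.4, 17.5 and 5.38 FPKM (log2 fold change 4.304 ± 0.99, adjusted p = 0.0011, and 2.91 without 6 hr replicate 2). In all 3 genes the groups were apart, and replicate 2 lay far above the other 6 hr libraries.

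Il6 held 5.75, 4.14 and 5.88 FPKM at 0 hr and 13.6, 26.5, 3.84, 15.5 and 10.5 FPKM at 6 hr (log2 fold change 1.07 ± 0.37, adjusted p = 0.025), with overlapping groups. The call of Il6 was lost without 6 hr replicate 2 (adjusted p = 0.072) or replicate 4 (0.054), without 0 hr replicate 2 (0.10) and with only the control libraries at 0 hr and 6 hr in the fit (0.089). Il15 (-0.74 ± 0.25, not called without 0 hr replicates 2 or 3 or 6 hr replicate 4, with the 8 libraries alone or with the replicate block with an adjusted p of 0.060 to 0.12), which supports NK and memory T cells, was the single member that fell. Of the whole list, 0 of its genes fell without 0 hr replicates 2 or 3 or 6 hr replicate 4 and 2 of its genes fell without 0 hr replicate 1 or 6 hr replicate 2. With only the control 0 hr and 6 hr libraries in the fit, 8 genes rose and 0 fell.

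Most chemokine genes rose, and 3 fell. Of the list, 14 of 20 tested genes rose (70%) and 3 fell (15%), with a median log2 fold change of 1.63. Ccl5, which attracts T cells and monocytes, held 65.7, 34.9 and 45.4 FPKM at 0 hr and 1584, 7169, 938, 2742 and 1763 FPKM at 6 hr (log2 fold change 5.52 ± 0.46, adjusted p = 1.9e-09). Cxcl10, the interferon-inducible ligand of CXCR3 (chr5:92346638-92348889), held 11.6, 4.75 and 6.65 FPKM and 180.5, 2412, 69.7, 326 and 282 FPKM (log2 fold change 5.24 ± 0.63, adjusted p = 4.2e-07, and 4.50 without 6 hr replicate 2). Ccl22, a ligand of CCR4, held 0.0822, 0.0802 and 0.086 FPKM and 16.96, 67.5, 3.57, 15.01 and 7.06 FPKM (log2 fold change 3.78 ± 0.70, adjusted p = 1.3e-04). These 3 genes were higher in every 6 hr library than in any 0 hr library.

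Ccl2, the main ligand of CCR2, behaved otherwise. It held 624, 599 and 561 FPKM at 0 hr, 1022, 585, 817, 1117 and 1439 FPKM at 6 hr and 1641, 1992, 1819 and 2615 FPKM at 24 hr (log2 fold change 0.68 ± 0.23, adjusted p = 0.021 at 6 hr), and replicate 2 was the lowest of the 6 hr libraries and within the range of 0 hr. Its call was lost without 0 hr replicate 2 (adjusted p = 0.053) or 3 (0.070), without 6 hr replicate 5 (0.062) and with only the control 0 hr and 6 hr libraries in the fit (0.056) or the replicate block (0.072). Ccl3 and Ccl4, inflammatory chemokines of macrophages, did not pass the test, with log2 fold changes of 0.88 ± 0.48 (adjusted p = 0.14) and 1.18 ± 0.62 (adjusted p = 0.13). Without 6 hr replicate 2 their log2 fold changes were 0.22 for Ccl3 and 0.30 for Ccl4, and with the replicate block Ccl4 was called (1.58, adjusted p = 0.039). Ccl4 held 895, 841 and 656 FPKM at 0 hr and 1132, 20471, 717, 1486 and 741 FPKM at 6 hr, so that replicate 2 lay far above the other 4. The 3 chemokine genes that fell were Ccl8 (-1.39 ± 0.52, not called without 0 hr replicates 2 or 3 or 6 hr replicates 2 or 4, with a pseudocount of 0.1 or with the replicate block with an adjusted p of 0.056 to 0.13), Ccl24 (-1.06 ± 0.33, not called without 0 hr replicate 2, with a pseudocount of 0.1 or with the replicate block with an adjusted p of 0.053 to 0.10) and Ccl6 (-0.72 ± 0.23, not called without 0 hr replicates 1 or 2 with an adjusted p of 0.060 to 0.066). Of the whole list, 0 of its genes fell without 0 hr replicate 2. With a pseudocount of 0.1 or the replicate block, 1 gene of the list fell.

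**Figure D2:**
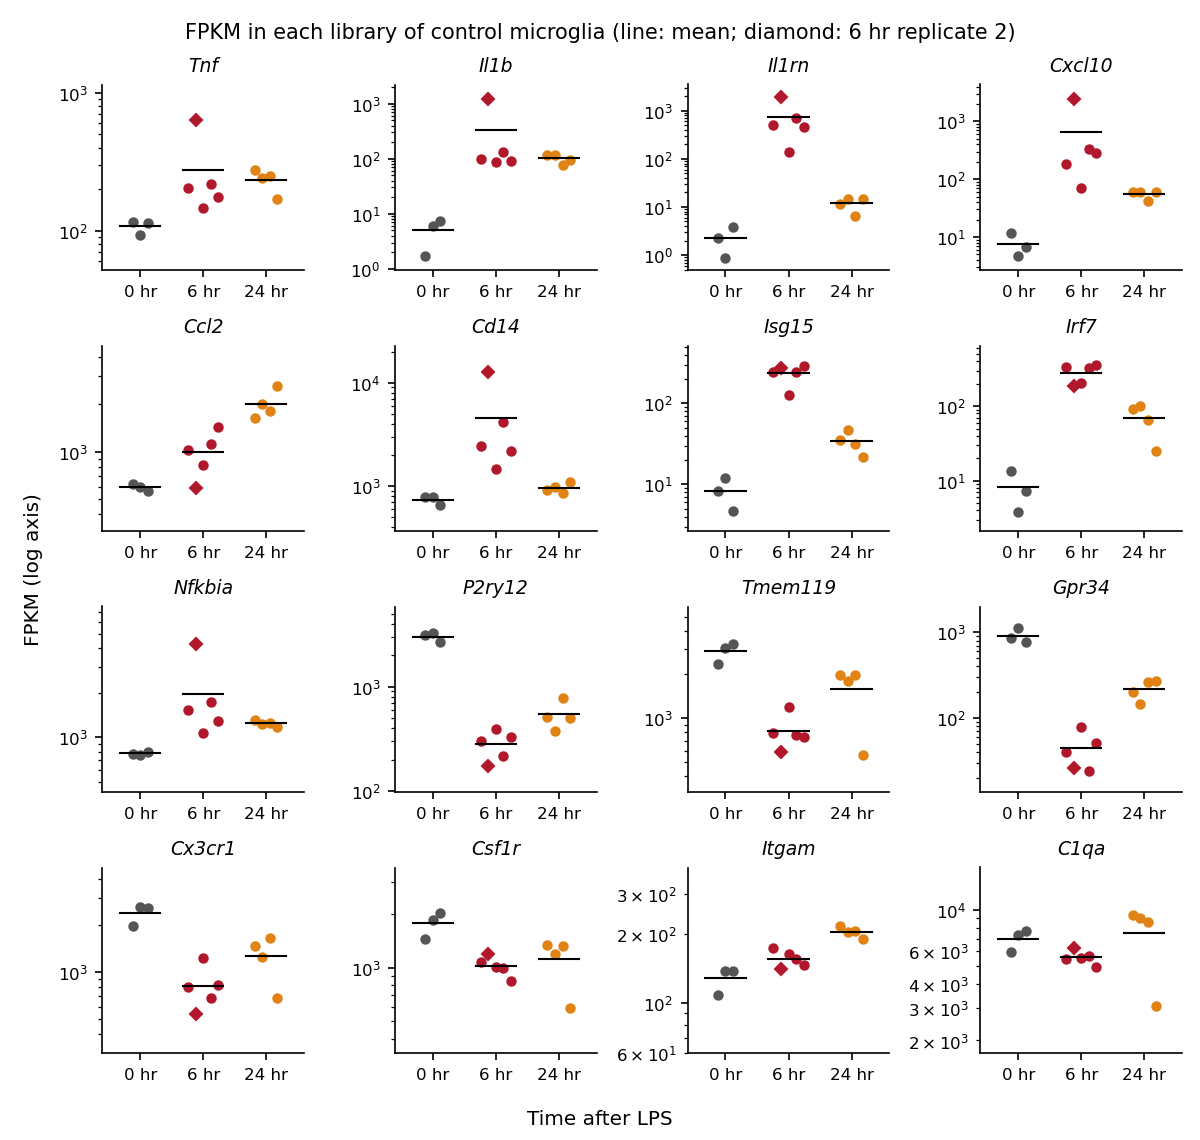
Each panel shows the FPKM of a gene (y axis, log scale) in each library of control microglia at 0 hr (grey, n = 3), 6 hr (red, n = 5) and 24 hr (orange, n = 4), with a line at the mean and a diamond for 6 hr replicate 2. In Il1b the diamond stands at 1238 FPKM and the other 6 hr libraries at or below 131 FPKM, whereas in P2ry12 and Gpr34 all 6 hr libraries lie below all 0 hr libraries.

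Interferon-stimulated genes rose almost throughout. Of the list, 39 of 40 tested genes rose (97.5%) and 0 fell (0%), with a median log2 fold change of 2.35, and 39 genes were also higher without replicate 2. The remaining gene, the transcription factor Irf1, held 35.1, 36.7 and 39.04 FPKM at 0 hr and 41.8, 42.4, 34.2, 35.2 and 55.5 FPKM at 6 hr (log2 fold change 0.15 ± 0.24, adjusted p = 0.64). Oasl1, an oligoadenylate synthetase-like protein, held 1.33, 0.684 and 1.17 FPKM and 64.5, 207, 21.1, 97.8 and 64.1 FPKM (log2 fold change 5.14 ± 0.42, adjusted p = 1.6e-09). Irf7, the transcription factor that amplifies type I interferon, held 13.7, 3.75 and 7.29 FPKM and 333, 184, 208, 326 and 363 FPKM (log2 fold change 5.04 ± 0.38, adjusted p = 5.8e-10). Unlike in the cytokine genes, replicate 2 was the lowest 6 hr library for Irf7.

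Isg20, an exonuclease with antiviral activity, held 13.7, 4.84 and 3.46 FPKM at 0 hr and 212, 143, 137, 208 and 267 FPKM at 6 hr (log2 fold change 4.69 ± 0.32, adjusted p = 1.4e-10). Isg15, a ubiquitin-like modifier, held 8.27, 11.9 and 4.74 FPKM and 244, 270.3, 127, 242 and 287 FPKM (log2 fold change 4.68 ± 0.37, adjusted p = 7.8e-10). Rsad2, the antiviral enzyme viperin, held 2.36, 1.15 and 0.988 FPKM and 47.5, 89.5, 8.36, 52.03 and 50.8 FPKM (log2 fold change 4.07 ± 0.44, adjusted p = 1.1e-07). The groups were apart in each of them, and replicate 3 was the lowest 6 hr library for all 3. Of the interferon signaling genes, smaller rises were those of Stat2 (2.105 ± 0.23) and Irf9 (1.01 ± 0.15). At 24 hr, Isg15 held 35.3, 47.4, 31.6 and 21.9 FPKM and Irf7 held 90.9, 99.5, 64.7 and 24.8 FPKM.

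NF-kB and the factors downstream of interferon are known to bind short motifs, and 4 promoters are shown because their genes rose and they hold a match to such a motif. They are the 250 bases before an annotated start of the gene, from RefSeq (GRCm38.p6), written 5′ to 3′ on the strand of the gene, with matches in capitals. Tnip3 (chr6:65590148-65590397, plus strand) and Oasl1 (chr5:114922990-114923239, plus strand) hold the NF-kB consensus. The Oasl1 window lies before 1 of several annotated starts, and its last 97 bases, with the matches, are within the gene as RefSeq lists it. Isg15 (chr4:156200819-156201068, minus strand) and Rsad2 (chr12:26456453-26456702, minus strand) hold the interferon-stimulated response element, searched as GAAANNGAAA.
Tnip3: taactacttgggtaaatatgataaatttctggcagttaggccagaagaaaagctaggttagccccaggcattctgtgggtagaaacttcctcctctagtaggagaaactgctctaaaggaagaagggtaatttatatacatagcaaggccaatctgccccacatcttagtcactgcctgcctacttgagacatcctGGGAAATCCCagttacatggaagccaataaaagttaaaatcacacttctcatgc
Oasl1: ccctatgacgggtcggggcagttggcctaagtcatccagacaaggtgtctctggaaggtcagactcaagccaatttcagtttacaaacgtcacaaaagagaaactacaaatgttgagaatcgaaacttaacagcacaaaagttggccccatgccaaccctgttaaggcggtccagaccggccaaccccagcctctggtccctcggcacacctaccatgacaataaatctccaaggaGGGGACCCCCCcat
Isg15: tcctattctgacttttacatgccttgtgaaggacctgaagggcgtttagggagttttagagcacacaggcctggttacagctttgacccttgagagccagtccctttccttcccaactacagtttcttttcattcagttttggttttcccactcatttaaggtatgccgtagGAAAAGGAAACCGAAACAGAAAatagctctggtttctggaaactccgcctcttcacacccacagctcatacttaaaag
Rsad2: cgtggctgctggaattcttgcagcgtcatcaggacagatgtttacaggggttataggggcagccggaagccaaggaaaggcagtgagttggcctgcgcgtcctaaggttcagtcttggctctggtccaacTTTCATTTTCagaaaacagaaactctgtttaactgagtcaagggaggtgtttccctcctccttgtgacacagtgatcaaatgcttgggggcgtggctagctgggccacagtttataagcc

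Both strands were searched, and overlapping matches were joined. The Tnip3 match, GGGAAATCCC, fits the consensus on both strands and spans 54 to 45 bases before the start. Oasl1 holds 4 overlapping matches to the NF-kB consensus, 2 on each strand, and none to the interferon element. Isg15 holds 3 overlapping matches to the interferon element between 78 and 57 bases before the start, namely GAAAAGGAAA, GAAACCGAAA and GAAACAGAAA. The Rsad2 match lies on the other strand, 120 to 111 bases before the start. The windows of Ikbke, Bcl3 and Irf7 that were searched hold neither motif, but each lies before 1 of several annotated starts, and 38, 69 and 75 of its bases are within the gene.

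Over all 32851 promoters of the reference, 2.98% hold the interferon element and 7.25% the NF-kB consensus in these 250 bases. Of the NF-kB pathway list, 19 of 23 tested genes had a promoter, and 9 of the 19 (47.4%) held the NF-kB consensus in at least 1 of their promoters, against 8.23% of all 27025 genes of the reference, and 0 held the interferon element, against 3.46%. The NF-kB list holds targets of NF-kB such as Nfkbia, and was chosen with earlier results of these data known. Its share is thus no test of the response, and the genes of the reference include genes not tested here. For the interferon-stimulated list the check was void, since 31 of 40 genes (77.5%) had a promoter. The printed promoters were picked for their matches, and a match is a stretch of letters and not a measured binding site.

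Of the feedback list, with inhibitors that restrain cytokine and MAP kinase signaling, 11 of 24 tested genes rose (45.8%) and 5 fell (20.8%), with a median log2 fold change of 0.88. The share that rose was above the background, and the share that fell was near it. Socs2 (3.195 ± 0.42), an inhibitor of cytokine receptor signaling, Nfil3 (2.95 ± 0.35), a transcription factor, and Dusp2 (2.85 ± 0.53, 2.21 without 6 hr replicate 2), a MAP kinase phosphatase, rose most. Dusp2 held 13.1, 8.08 and 16.2 FPKM at 0 hr and 76.3, 545, 31.2, 98.3 and 52.6 FPKM at 6 hr, highest in replicate 2. Socs3 (1.63 ± 0.55, not called without 0 hr replicate 1 or 6 hr replicate 2 or with the 8 libraries alone with an adjusted p of 0.052 to 0.11), Socs1 (1.36 ± 0.33) and Il4ra (2.63 ± 0.25) rose as well. Atf3 (-1.82 ± 0.31), Zfp36 (-0.78 ± 0.28, not called without 0 hr replicate 3 or 6 hr replicate 4, after quantile normalization or with the replicate block with an adjusted p of 0.060 to 0.13), an mRNA decay factor, Il10ra (-0.81 ± 0.22), the IL-10 receptor, and Dusp1 (-0.65 ± 0.22, not called without 0 hr replicates 1 or 2 or 6 hr replicate 4, after quantile normalization or with the replicate block with an adjusted p of 0.053 to 0.12) and Socs6 (-0.51 ± 0.20, not called without 0 hr replicates 1, 2 or 3 or 6 hr replicates 2, 4 or 5, with no filter or with the replicate block with an adjusted p of 0.050 to 0.13) fell. Of the whole list, 2 of its genes fell without 6 hr replicate 4 and 3 of its genes fell without 0 hr replicates 1, 2 or 3. After quantile normalization 3 genes of the list fell, and with the replicate block 2.

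Of the inflammasome and IL-1 receptor list, 8 of 14 tested genes rose (57.1%) and 0 fell (0%), with a median log2 fold change of 0.69. The decoy receptor Il1r2 (4.52 ± 0.72, 5.11 without 0 hr replicate 1) led, with 4.43, 0.108 and 1.28 FPKM at 0 hr and 51.1, 96.2, 20.02, 122 and 37.4 FPKM at 6 hr. Mefv (2.72 ± 0.32), the sensor pyrin, Casp4 (2.43 ± 0.28), the receptor of intracellular LPS, and Nlrp3 (0.62 ± 0.20, not called without 0 hr replicate 2 or with the 8 libraries alone with an adjusted p of 0.072 to 0.11) rose, whereas Casp1 (0.37 ± 0.19, called without 6 hr replicate 2 with an adjusted p of 0.043) and Pycard (0.19 ± 0.21, called without 6 hr replicate 2 with an adjusted p of 0.035) did not pass the test. Of the whole list, 1 of its genes fell without 6 hr replicates 1 or 3.

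Homeostatic microglia genes fell almost throughout. Of the list, 1 of 36 tested genes rose (2.78%) and 31 fell (86.1%), with a median log2 fold change of -1.28, and 30 genes fell without replicate 2. P2ry12, the ADP receptor that guides microglial processes (Entrez 70839, chr3:59216271-59262985), held 3131, 3242 and 2650.2 FPKM at 0 hr and 301, 175, 397, 216 and 333 FPKM at 6 hr (log2 fold change -3.45 ± 0.23, adjusted p = 9.9e-11). Tmem119, a surface marker of microglia, held 2375, 3042 and 3259 FPKM and 793, 589.9, 1204, 762 and 743 FPKM (log2 fold change -1.85 ± 0.28, adjusted p = 1.3e-05). Cx3cr1, the receptor for neuronal fractalkine, held 1982, 2616 and 2597 FPKM and 802, 542, 1244, 682 and 830.4 FPKM (log2 fold change -1.59 ± 0.24, adjusted p = 1.2e-05). In each, all 6 hr libraries were below all 0 hr libraries, and replicate 2 was the lowest. In bulk samples, fewer cells of a type and less RNA per cell cannot be told apart.

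Slc2a5, a fructose transporter typical of microglia, held 499.7, 584 and 512 FPKM at 0 hr and 73.8, 66.6, 74.8, 40.1 and 70.4 FPKM at 6 hr (log2 fold change -3.04 ± 0.29, adjusted p = 1.7e-08). Trem2, a lipid-sensing receptor, held 2090.1, 2361 and 2301 FPKM and 803, 794, 779.8, 687 and 738 FPKM (log2 fold change -1.57 ± 0.13, adjusted p = 1.6e-09). Csf1r, the receptor that keeps microglia alive, fell less, with 1451, 1852 and 2017 FPKM and 1071, 1193, 1009, 999 and 836 FPKM (log2 fold change -0.79 ± 0.19, adjusted p = 0.0018). The falls among microglial genes were thus of unequal size. Adora3 (1.02 ± 0.20), an adenosine receptor, was the single member that rose. At 24 hr, P2ry12 held 511, 379, 782 and 506 FPKM and Tmem119 held 1979, 1790.1, 1986 and 556 FPKM, lowest in replicate 4 for Tmem119.

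Among transcription factors of microglial identity more genes fell than rose. Of the list, 4 of 19 tested genes rose (21.1%) and 9 fell (47.4%), with a median log2 fold change of -0.48, and the share that rose was near the background. Sall1, the factor that distinguishes microglia from other macrophages, held 86.2, 85.8 and 92.7 FPKM at 0 hr and 22.8, 17.4, 37.3, 17.7 and 25.3 FPKM at 6 hr (log2 fold change -1.88 ± 0.17, adjusted p = 5.0e-09). Etv5 (-1.58 ± 0.36), Mef2c (-1.26 ± 0.21) and Irf8 (-0.92 ± 0.23) fell too. The members that rose were Cebpb (3.099 ± 0.31), Bhlhe40 (1.41 ± 0.28), Runx1 (1.17 ± 0.17) and Cebpd (0.84 ± 0.22). Cebpb, a factor of acute phase and emergency myeloid gene expression, held 65.9, 67.3 and 110.4 FPKM and 837, 589.8, 579, 813 and 639 FPKM (log2 fold change 3.099 ± 0.31, adjusted p = 2.8e-08). Spi1 (0.49 ± 0.22, called without 6 hr replicate 3 or with the 8 libraries alone with an adjusted p of 0.029 to 0.044), which encodes PU.1, did not pass the test.

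Among immediate early genes, which respond within minutes to stimuli, Fos and Jun were abundant at 0 hr. Of the list, 4 of 21 tested genes rose (19%) and 6 fell (28.6%), with a median log2 fold change of -0.28, and the share that rose was near the background. Fos held 2643, 2824 and 2654 FPKM at 0 hr and 1174, 224, 1473, 482 and 831 FPKM at 6 hr (log2 fold change -1.97 ± 0.39, adjusted p = 2.5e-04). Jun held 1689, 1470.5 and 1900.0 FPKM and 805, 129, 1177, 331 and 667 FPKM (log2 fold change -1.79 ± 0.45, adjusted p = 0.0025). Fosb held 127, 95.4 and 117 FPKM and 51.7, 1.53, 94.97, 8.12 and 26.3 FPKM (log2 fold change -2.504 ± 0.70, adjusted p = 0.0056, and -1.76 without 6 hr replicate 2, not called with the 8 libraries alone with an adjusted p of 0.066). Replicate 2 was the lowest in all 3. With only the control libraries at 0 hr and 6 hr in the fit, 3 genes of the list fell. The members that rose were Fosl2 (1.399 ± 0.24), Ier3 (1.26 ± 0.24), Myc (0.89 ± 0.17) and Mafk (0.57 ± 0.21, not called without 0 hr replicates 1, 2 or 3 or 6 hr replicates 1 or 3 with an adjusted p of 0.055 to 0.10).

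Most acute phase and iron genes rose, and the iron exporter fell. Of the list, 13 of 16 tested genes rose (81.2%) and 1 fell (6.25%), with a median log2 fold change of 2.001. Hp (5.51 ± 0.53, 6.23 without 0 hr replicate 1 and 4.58 without 0 hr replicate 2), haptoglobin, held 69.1, 6.15 and 34.6 FPKM at 0 hr and 1402, 1152, 817, 1531 and 1201 FPKM at 6 hr. Sod2 (4.37 ± 0.31), the mitochondrial superoxide dismutase, and Lcn2 (3.32 ± 0.54, 2.30 without 0 hr replicate 2 and 3.94 without 0 hr replicate 3), which sequesters bacterial siderophores, rose with it. Fth1, the ferritin heavy chain that stores iron, held 3361, 3015 and 2819 FPKM and 11473, 21019.6, 7201, 14482 and 11293 FPKM (log2 fold change 2.01 ± 0.24, adjusted p = 3.0e-07). Slc40a1, the exporter ferroportin, fell, from 67.3, 84.7 and 73.1 FPKM to 9.86, 2.73, 7.66, 6.31 and 11.01 FPKM (log2 fold change -3.26 ± 0.27, adjusted p = 1.6e-09). Tfrc (1.81 ± 0.21), the transferrin receptor, and Hmox1 (2.65 ± 0.22), which frees iron from heme, rose.

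Genes that respond to glucocorticoids, which LPS raises in blood, rose in majority. Of the list with metallothioneins, 10 of 15 tested genes rose (66.7%) and 1 fell (6.67%), with a median log2 fold change of 1.35. Mt2 held 1.07, 6.53 and 3.36 FPKM at 0 hr and 206, 2086, 29.7, 519.7 and 99.6 FPKM at 6 hr (log2 fold change 5.84 ± 0.84, adjusted p = 5.6e-06, and 5.05 without 6 hr replicate 2 and 6.57 without 6 hr replicate 3). Fkbp5, a chaperone of the glucocorticoid receptor, held 11.02, 10.5 and 11.3 FPKM and 148, 43.05, 134, 133 and 152 FPKM (log2 fold change 3.24 ± 0.37, adjusted p = 1.7e-07). Here replicate 2 was the lowest library, in contrast to Mt2. Klf9 (3.73 ± 0.45) and Tsc22d3 (1.35 ± 0.26) rose, and Sesn1 (-1.54 ± 0.16), a sestrin, was the single member that fell.

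Of the complement list, 6 of 16 tested genes rose (37.5%) and 3 fell (18.8%), with a median log2 fold change of 0.24, the latter a share near the background. Besides Cfb, Cfp (4.08 ± 0.37), properdin, C5ar1 (3.14 ± 0.18), the C5a receptor, and C3 (2.29 ± 0.38, 1.51 without 0 hr replicate 2) rose. C5ar1 held 100.4, 103 and 109 FPKM at 0 hr and 994, 1092, 856, 846 and 856 FPKM at 6 hr, so that the groups were far apart. C1qc (-0.70 ± 0.17) and the receptor C5ar2 (-0.88 ± 0.35, not called without 0 hr replicates 1 or 2 or 6 hr replicates 2 or 4, with the 8 libraries alone, with no filter or with no variance trend with an adjusted p of 0.050 to 0.17) were among those that fell, whereas C1qa (-0.32 ± 0.24) and C1qb (-0.10 ± 0.16) were not called.

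Most genes of MHC class I presentation did not pass the test, whereas most genes of MHC class II fell. Of the MHC class I list, 6 of 19 tested genes rose (31.6%) and 1 fell (5.26%), with a median log2 fold change of 0.27, and Tap1 (1.601 ± 0.31), Nlrc5 (1.57 ± 0.22) and Psme2 (1.13 ± 0.17) rose most, whereas H2-M3 (-0.80 ± 0.18) fell. Tap1, the peptide transporter, had overlapping groups, with 17.7, 15.6 and 35.9 FPKM at 0 hr and 68.9, 90.1, 35.2, 81.2 and 77.99 FPKM at 6 hr. Of the MHC class II and costimulation list, 4 of 14 tested genes rose (28.6%) and 8 fell (57.1%), with a median log2 fold change of -0.76. The class II genes H2-Eb1 (-2.497 ± 0.29), H2-Aa (-2.08 ± 0.27) and H2-Ab1 (-2.02 ± 0.26) fell, and H2-Eb1 held 337, 237 and 192 FPKM at 0 hr and 54.1, 72.3, 19.9, 44.5 and 42.9 FPKM at 6 hr. The members that rose were the costimulatory or checkpoint molecules Cd40 (3.62 ± 0.60, 2.94 without 6 hr replicate 2), Cd274 (2.499 ± 0.41), Cd86 (1.04 ± 0.22) and Icosl (0.86 ± 0.34, not called without 0 hr replicates 1, 2 or 3, with the 8 libraries alone, after quantile normalization, with no filter or with no variance trend with an adjusted p of 0.051 to 0.20). Cd40 held 6.34, 1.79 and 1.48 FPKM and 28.3, 303, 13.5, 75.5 and 18.9 FPKM, highest in replicate 2. The MHC class II genes are also expressed by border-associated macrophages, whose markers are given with the other cell types.

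Of the disease-associated microglia list, 5 of 18 tested genes rose (27.8%) and 7 fell (38.9%), with a median log2 fold change of -0.14. The genes that rose were Spp1 (4.77 ± 0.43), Lilrb4a (4.23 ± 0.40), Lgals3 (2.37 ± 0.38), Cst7 (1.65 ± 0.25) and Cd63 (1.24 ± 0.14), the first 3 of which encode osteopontin, an inhibitory receptor and galectin-3. Spp1 held 7.45, 3.24 and 5.07 FPKM at 0 hr and 200.5, 77.8, 124, 255 and 235 FPKM at 6 hr, lowest of the 6 hr libraries in replicate 2. Apoe (-1.72 ± 0.25), the lipid carrier, and Cd9 (-1.34 ± 0.14), Cd68 (-1.15 ± 0.12) and Ctsd (-0.96 ± 0.21) were among those that fell. The list thus did not move in 1 direction.

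Genes of lipid mediators and nitric oxide rose and fell in equal number. Of the list, 7 of 16 tested genes rose (43.8%) and 7 fell (43.8%), with a median log2 fold change of -0.12. The inducible cyclooxygenase Ptgs2 (1.84 ± 0.33) rose and the constitutive Ptgs1 (-1.11 ± 0.26) fell. The prostaglandin E synthase Ptges was listed at 0 in all 0 hr libraries and held 7.38, 33.5, 4.97, 12.5 and 7.22 FPKM at 6 hr. Hpgd (-3.58 ± 0.32), which degrades prostaglandins, held 145, 159 and 162 FPKM and 14.3, 4.37, 31.03, 8.51 and 13.99 FPKM. Tbxas1 (-1.43 ± 0.16), Hpgds (-1.297 ± 0.20) and Ltc4s (-1.77 ± 0.20), the synthases of thromboxane, prostaglandin D2 and leukotriene C4, fell.

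Of the glycolysis list, 13 of 21 tested genes rose (61.9%) and 2 fell (9.52%), with a median log2 fold change of 0.59. The platelet-type phosphofructokinase Pfkp (2.69 ± 0.33), the glucose transporter Slc2a1 (2.26 ± 0.30) and Pfkfb3 (1.99 ± 0.47), which makes an activator of phosphofructokinase, rose most. Slc2a1 held 25.3, 29.7 and 25.9 FPKM at 0 hr and 156, 191, 90.3, 158 and 96.5 FPKM at 6 hr. Ldha (1.81 ± 0.17) and Hif1a (1.12 ± 0.23) rose, and Hk3 (-1.17 ± 0.20) and Pfkfb4 (-0.89 ± 0.24) fell.

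Of the Bcl2 family and cell death list, 11 of 24 tested genes rose (45.8%) and 3 fell (12.5%), with a median log2 fold change of 0.45. Bcl2a1d (4.07 ± 0.34), a survival gene with near-identical copies among which reads may be split, the death receptor Fas (3.59 ± 0.51) and the necroptosis kinase Ripk3 (3.05 ± 0.25) rose most. Fas held 2.89, 0.161 and 0.951 FPKM at 0 hr and 14.1, 109, 9.34, 25.5 and 20.04 FPKM at 6 hr, highest in replicate 2. Bid (-1.27 ± 0.36, not called with the 8 libraries alone with an adjusted p of 0.075), Bcl2l11 (-0.68 ± 0.23, not called without 0 hr replicates 1 or 2 or 6 hr replicate 4 with an adjusted p of 0.050 to 0.056) and Casp8 (-0.62 ± 0.12), of the apoptotic pathway, fell.

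Of the proliferation list, 9 of 20 tested genes rose (45%) and 3 fell (15%), with a median log2 fold change of 0.74. Ccnd2 (2.43 ± 0.33) led, and the mitotic genes Cdc20 (1.56 ± 0.38, 0.95 without 0 hr replicate 3) and Top2a (1.49 ± 0.33) rose from low levels. Cdc20 held 4.09, 3.01 and 0.262 FPKM at 0 hr and 6.35, 8.16, 4.84, 12.7 and 8.45 FPKM at 6 hr. The G1 cyclin Ccnd1 (-0.99 ± 0.31, not called without 0 hr replicate 1 or with the 8 libraries alone with an adjusted p of 0.051 to 0.094) and the replication helicase subunits Mcm3 (-0.88 ± 0.20) and Mcm7 (-0.82 ± 0.18) fell.

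Of the adhesion and cytoskeleton list, 14 of 25 tested genes rose (56%) and 5 fell (20%), with a median log2 fold change of 0.77, and the share that fell was near the background. Cd44 (3.101 ± 0.35), the hyaluronan receptor, and Vim (2.91 ± 0.32), vimentin, were among the members that rose most. Cd44 held 6.03, 4.01 and 5.65 FPKM at 0 hr and 40.6, 121, 26.6, 57.1 and 49.6 FPKM at 6 hr. Selplg (-1.64 ± 0.17), the ligand of selectins, and the integrin Itga6 (-1.74 ± 0.40) fell. Fn1 and Itga4 of this list are also on the monocyte list.

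**Figure D3:**
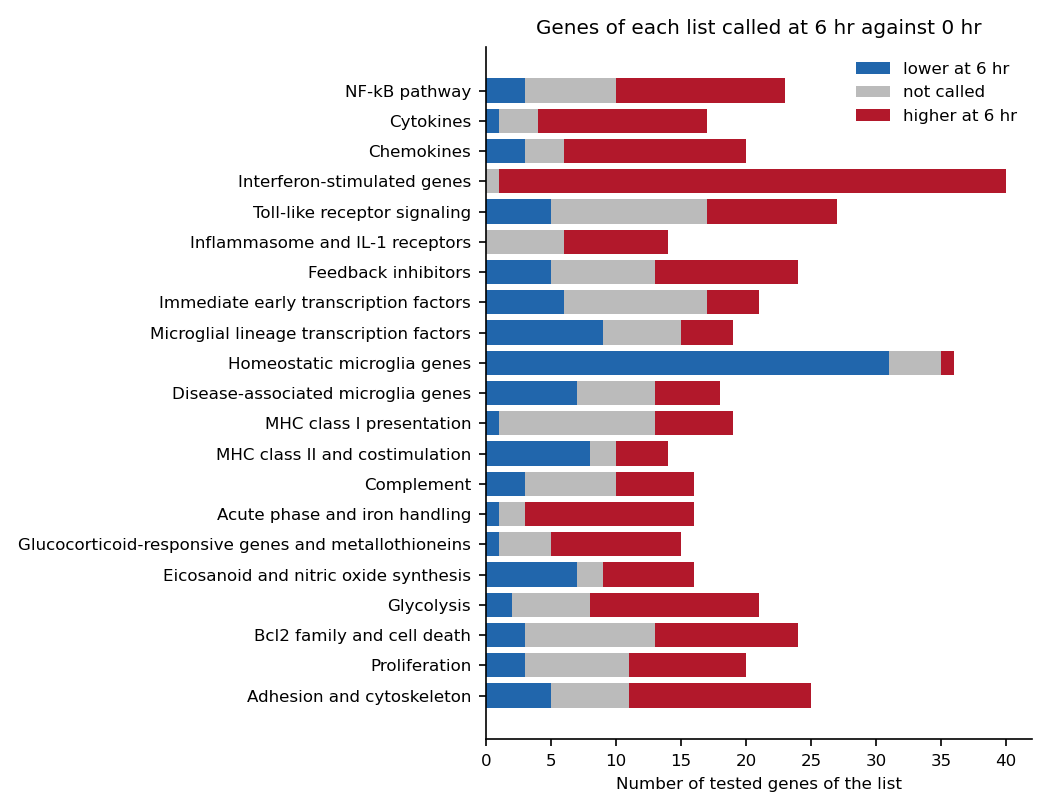
Bars give the number of tested genes of each list (x axis) that were lower at 6 hr (blue), not called (grey) or higher at 6 hr (red), by limma with an adjusted p under 0.05. The interferon-stimulated list is nearly all red (39 of 40) and the homeostatic list nearly all blue (31 of 36), against 21.4% higher and 21.1% lower over all genes tested.

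The spread between 6 hr libraries differed by list. The median log2 difference from the 0 hr mean over the NF-kB pathway list was 0.62, 2.58, 0.30, 1.34 and 0.15 in replicates 1 to 5. For the interferon-stimulated list it was 2.39, 2.74, 1.59, 2.64 and 2.601, and for the homeostatic list -1.196, -1.65, -1.12, -1.52 and -1.31. Replicate 2 was thus far from the others in the NF-kB list and near them in the interferon-stimulated list, and replicate 3 was the lowest in the interferon-stimulated list.

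**Figure D4:**
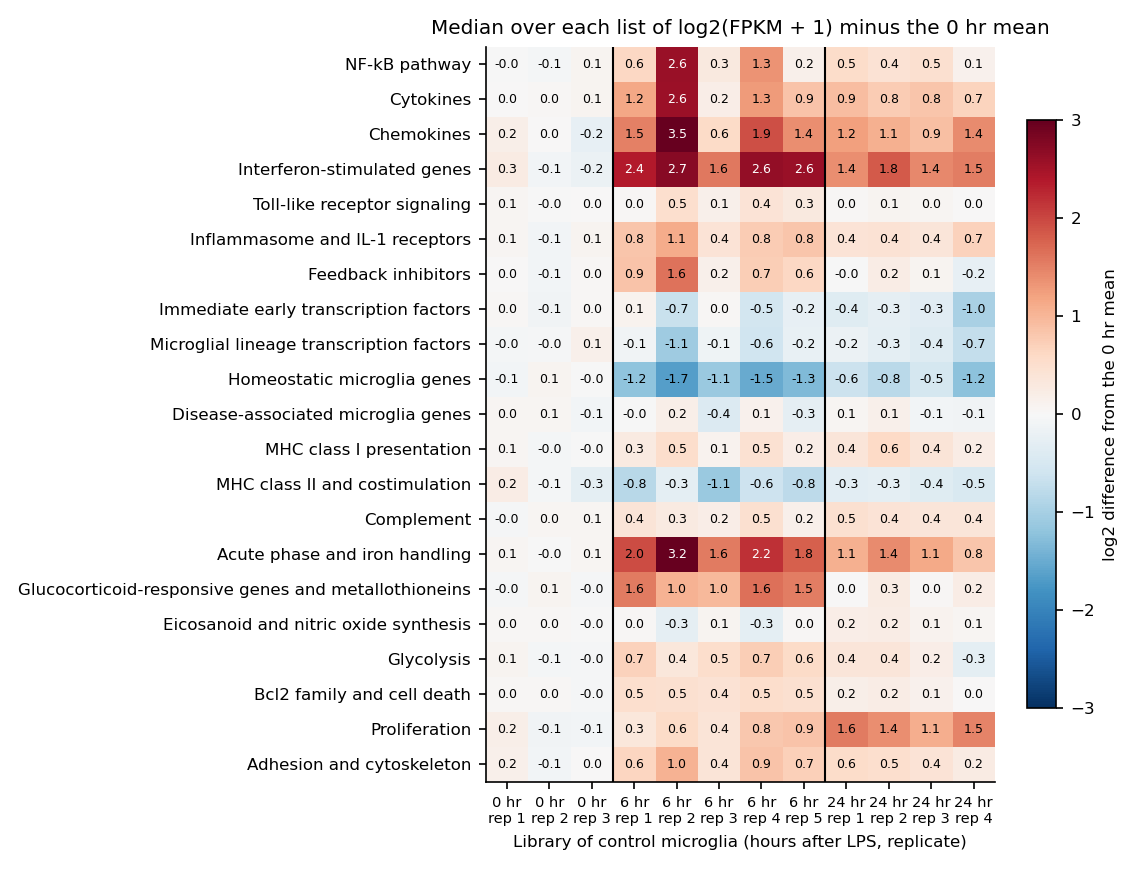
Rows are gene lists and columns the 12 libraries of control microglia at 0 hr, 6 hr and 24 hr, and each cell gives the median over the tested genes of a list of log2(FPKM + 1) minus the 0 hr mean, from blue (lower) to red (higher). The column of 6 hr replicate 2 is the darkest for the NF-kB (2.58), cytokine (2.57) and chemokine (3.48) lists.

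Markers of other cells moved with these results. Of the monocyte list, 11 of 14 tested genes rose (78.6%) and 0 fell (0%), with a median log2 fold change of 1.87, and its summed FPKM was 160.2 to 474 at 0 hr, 1727 to 3348 at 6 hr and 590.2 to 794 at 24 hr. Plac8, the most abundant of the list over the 8 libraries though not at 0 hr alone, held 110.1, 35.5 and 40.5 FPKM at 0 hr and 1161, 581, 869.6, 1129 and 1415 FPKM at 6 hr (log2 fold change 4.16 ± 0.42, adjusted p = 3.8e-08). Ly6c2, which defines inflammatory monocytes, held 52.2, 18.5 and 54.5 FPKM and 507, 261, 367, 529 and 594 FPKM (log2 fold change 3.49 ± 0.50, adjusted p = 5.1e-06). Ccr2, their chemokine receptor, did not pass the test, at 34.99, 17.7 and 16.02 FPKM and 47.1, 19.3, 32.3, 48.9 and 52.2 FPKM (log2 fold change 0.78 ± 0.38, adjusted p = 0.11). It passed the test without 6 hr replicate 2 (log2 fold change 1.01, adjusted p = 0.032) and without 0 hr replicate 1 (1.11, adjusted p = 0.042). Of the 14 markers, 12 had a mean of at least 1 FPKM at 0 hr, and no marker was at 0 in all 8 libraries. The CD45int gate is set to leave out cells with high CD45, though neutrophil markers were abundant in the sorted cells. The part of monocytes in the results was not tested. In replicate 2 the summed FPKM of the list was 1727, the lowest of the 6 hr libraries.

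Neutrophil markers varied among libraries within each time. Of the list, 0 of 14 tested genes rose (0%) and 3 fell (21.4%), with a median log2 fold change of -0.87, the latter a share near the background, with a summed FPKM of 1941 to 9225 at 0 hr and 978 to 5917 at 6 hr. S100a8, the most abundant, held 4733, 1009.8 and 2753 FPKM at 0 hr and 1229, 3356, 846, 2468 and 618 FPKM at 6 hr (log2 fold change -0.76 ± 0.70, adjusted p = 0.41, and -1.37 without 0 hr replicate 2). Ly6g, the defining marker, fell to 0, 3.09, 0, 1.03 and 0 FPKM at 6 hr from 6.98, 7.17 and 11.2 FPKM at 0 hr (log2 fold change -2.599 ± 0.52, adjusted p = 2.9e-04). Csf3r (-0.68 ± 0.18) and Mmp9 (-1.603 ± 0.57, not called without 0 hr replicates 1 or 3 or 6 hr replicates 1 or 5 or with the replicate block with an adjusted p of 0.054 to 0.11) fell with it. The highest sum at 6 hr, 5917 FPKM, was that of replicate 2, and the next, 4297 FPKM, that of replicate 4. The part of neutrophils in the NF-kB and cytokine lists and in Lcn2, Hp and the other genes that they also express was not tested.

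Of the border-associated macrophage list, 2 of 12 tested genes rose (16.7%) and 7 fell (58.3%), with a median log2 fold change of -1.13, with a summed FPKM of 126 to 242 at 0 hr and 82.7 to 144 at 6 hr. Pf4 (-2.598 ± 0.54), Ms4a7 (-1.95 ± 0.41, -1.35 without 0 hr replicate 1) and Mrc1 (-1.33 ± 0.29) fell, with Mrc1 overlapping between the groups, and Clec4n (1.61 ± 0.27) and Siglec1 (1.33 ± 0.37) rose. Stab1, the most abundant, held 47.2, 51.8 and 62.2 FPKM and 93.7, 33.8, 90.9, 84.7 and 83.2 FPKM (log2 fold change 0.44 ± 0.23, adjusted p = 0.13), and rose by 0.71 on the log2 scale without replicate 2 (adjusted p = 0.00042). Their part in the fall of MHC class II genes was not tested.

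Of the lymphocyte list, 1 of 11 tested genes rose (9.09%) and 2 fell (18.2%), with a median log2 fold change of -0.01. Gzma, a granzyme of NK and T cells, held 10.8, 3.47 and 2.66 FPKM at 0 hr and 55.2, 41.03, 29.6, 83.8 and 149.8 FPKM at 6 hr (log2 fold change 3.42 ± 0.60, adjusted p = 6.7e-05). Besides Cd79b, Cd8b1 (-1.32 ± 0.26) fell. Of the whole list, 2 of its genes rose without 0 hr replicate 1 or 6 hr replicates 2 or 3. In 4 lists of other brain cells 4 to 7 genes were tested. Of the endothelial and mural list 1 of 4 tested genes rose, Acta2 (0.79 ± 0.28, not called without 0 hr replicates 1 or 2 or 6 hr replicates 4 or 5, with the 8 libraries alone, with a pseudocount of 0.1 or with the replicate block with an adjusted p of 0.051 to 0.22), and 0 fell. Of the astrocyte list 1 of 7 rose, Gja1 (1.02 ± 0.27), and of the neuron list 1 of 4, Tubb3 (0.93 ± 0.27), and 0 fell in either. Of the oligodendrocyte list 0 rose and 2 of 4 fell, Mag (-0.64 ± 0.20, not called without 0 hr replicate 1 with an adjusted p of 0.066) and Cnp (-0.59 ± 0.24, not called without 0 hr replicates 1 or 3 or 6 hr replicates 1, 2 or 4, with a pseudocount of 0.1, with no filter, with no variance trend or with the replicate block with an adjusted p of 0.053 to 0.17). The most abundant markers of the other 3 lists, Pecam1 (-0.22 ± 0.33), Slc1a3 (0.07 ± 0.17) and Snap25 (0.52 ± 0.30), did not pass the test. The summed FPKM was 9.16 to 14.9 at 0 hr and 9.83 to 19.7 at 6 hr for endothelial and mural markers, and 63.4 to 68.6 at 0 hr and 62.9 to 97.9 at 6 hr for astrocyte markers. It was 2.72 to 5.03 at 0 hr and 4.36 to 7.39 at 6 hr for neuron markers, and 57.2 to 71.4 at 0 hr and 36.6 to 52.2 at 6 hr for oligodendrocyte markers, of which the last did not overlap between the times. No erythrocyte marker reached the limit for testing.

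**Figure D5:**
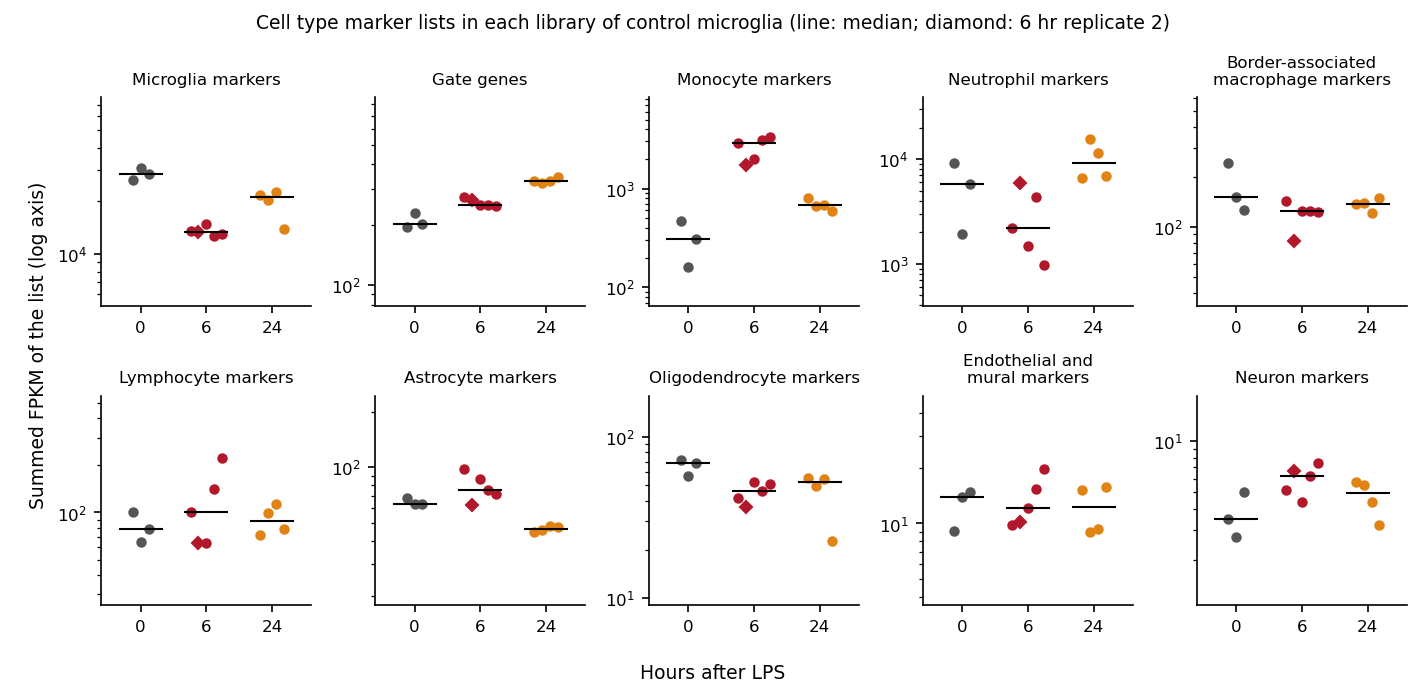
Each panel gives the summed FPKM of a marker list (y axis, log scale) in each library of control microglia at 0 hr, 6 hr and 24 hr (x axis), with a line at the median and a diamond for 6 hr replicate 2. Monocyte markers lie at 1727 to 3348 at 6 hr against 160.2 to 474 at 0 hr, and microglia markers at 12714 to 14860.3 against 26187 to 30706.

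The response of WM repopulating cells to LPS at 6 hr was set against that of control microglia as an interaction term of the same fit. It differed in 3 of 12684 genes (0.0237%), Cspg4, E030042O20Rik and Myo18b, while 913 genes had an unadjusted p under 0.05. All 3 calls were lost with only the 4 groups compared in the fit and with the replicate block, and also without control 0 hr replicate 2, control 6 hr replicate 1, 2 or 4, WM repopulating 0 hr replicate 2 or 3, or WM repopulating 6 hr replicate 1 or 4, each left out alone. Cspg4 reached the limit for testing, 1 FPKM in 3 libraries, through the 4 WM repopulating libraries at 6 hr and 1 at 24 hr, and Myo18b through the 3 control libraries at 0 hr and in no other. Both thus entered the test through a group in which they were high, and their calls are no support for a difference in response. In control microglia Cspg4, a proteoglycan of precursor cells, was at most 0.156 FPKM at 6 hr, and E030042O20Rik fell (-0.94 ± 0.19). Myo18b was lower at 6 hr (-1.63 ± 0.16), but it was tested only through its 0 hr values, so this call is no support for a fall. For the main genes of the response the difference, WM repopulating cells minus control microglia, was -0.36 ± 0.66 for Saa3, 0.74 ± 0.33 for P2ry12 and -1.65 ± 0.87 for Cxcl10 on the log2 scale. None of the 3 passed the test (adjusted p = 0.93, 0.67 and 0.71).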

How the data were processed

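The deposited values are FPKM of 15285 genes in 24 libraries of sorted cells (89 genes have no symbol). According to the methods, the authors made cDNA by Smart-seq2, which does not mark strand, aligned reads with STAR, counted them with featureCounts and normalized them with edgeR and limma, whereas the extract protocol in the labels describes frozen tissue of brain regions and another library protocol. The submitters' processing notes name the build mm10. Overlapping genes, paralogs such as the Ifit3 and Bcl2a1 copies, and immunoglobulin segments may share reads. Depth was recovered from the steps that single reads leave in the FPKM of low genes (found in 98.1% of 5106 genes).

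Genes with an FPKM of at least 1 in at least 3 of the 24 libraries were tested with limma 3.58.1 (R 4.3.3) on log2(FPKM + 1), with all 6 groups in 1 fit, a variance trend, and Benjamini-Hochberg adjustment over all 12684 genes, 2-sided. The step was tested on simulated data. The study gives n as mice per group, and the labels do not tie these libraries to mice. Alternatives were another pseudocount, filter, scaling, set of groups or variance prior, a replicate block, and leaving out each library.

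The comparison, the 21 function lists and the 10 cell type lists were chosen with earlier results of these data known. Named by rule were 107 genes, namely the 15 largest rises and falls without overlap, the 3 largest changes of each function list, 16 genes fixed by hand, the genes of the interaction and the most abundant marker of each list. Another 101 genes of the lists were named after their values were seen. Some genes are not reported here. Promoters were matched by Entrez ID or symbol (9819 of 12684 tested genes). Scripts used Python 3.11.15, numpy 2.4.6, pandas 2.3.3 and matplotlib 3.10.9.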

Additional observations from a re-analysis of the deposited data

Results flagged for a closer look

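Of 208 named genes, 43 had a library at 6 hr whose gap to the nearest other library was above Dixon's 95% value for 5 samples (0.71). Chance gives about 1 in 20 for independent, normal values. Here the values were FPKM and not logs, genes share lists, and 101 were named after their values were seen, so that rate does not apply. In 34 of the 43 the library apart was the highest. In 35 of the 43 the library was replicate 2. Among these it was the highest for Irg1 (505 FPKM), Mt2 (2086 FPKM), Ccl5 (7169 FPKM), Cxcl10 (2412 FPKM), Il1b (1238 FPKM), Il12b (1439 FPKM), Bcl3 (187 FPKM), Ccl22 (67.5 FPKM), Cd40 (303 FPKM), Fas (109 FPKM), Ptges (33.5 FPKM), Tnip3 (45.3 FPKM), Dusp2 (545 FPKM), Cd274 (112 FPKM) and Cd14 (12769.6 FPKM). It was also the highest for Irak3 (52.4 FPKM), Ptgs2 (12.9 FPKM), Socs3 (439 FPKM), Nfkb2 (171 FPKM), Ccl4 (20471 FPKM), Runx1 (105 FPKM), Nfkbia (4239 FPKM), Tnf (637 FPKM), Gja1 (3.78 FPKM), Adora3 (136 FPKM), Ccl3 (10342 FPKM), Icosl (105 FPKM), Nfkb1 (72.6 FPKM), Il15 (19.4 FPKM) and Il10ra (148 FPKM), and the lowest for Fkbp5 (43.05 FPKM), Tsc22d3 (127 FPKM), Cebpd (67.3 FPKM), Stab1 (33.8 FPKM) and Pycard (111 FPKM). Replicate 2 had 6.39 M reads, the median depth of its group, and its total FPKM was 609203 against 448890 to 501688 in the other 6 hr libraries.

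In the other 8 genes another library stood apart. It was the highest for Cd79a (2.73 FPKM, replicate 5), Casp8 (71.6 FPKM, replicate 5), E030042O20Rik (0.783 FPKM, replicate 5) and Ighj1 (16.3 FPKM, replicate 3), and the lowest for Isg15 (127 FPKM, replicate 3), Lilrb4a (136 FPKM, replicate 3), Cd63 (399 FPKM, replicate 3) and Slc2a5 (40.1 FPKM, replicate 4).

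The response at 6 hr differed between WM repopulating cells and control microglia in 3 genes, by the interaction term of limma's fit. The difference, WM repopulating cells minus control microglia, was 1.54 for Cspg4 (adjusted p = 0.042), 1.56 for E030042O20Rik (adjusted p = 0.032) and 1.35 for Myo18b (adjusted p = 0.026) on the log2 scale. All 3 calls, that of E030042O20Rik included, were lost with only the 4 groups compared in the fit, with the replicate block, and without any 1 of several single libraries. Cspg4 was between 0.118 and 0.319 FPKM in WM repopulating cells at 0 hr and between 1.13 and 3.93 FPKM at 6 hr, and reached 1 FPKM in these 4 libraries and in 1 WM repopulating library at 24 hr. Myo18b reached 1 FPKM in the 3 control libraries at 0 hr alone. Both thus entered the test through a group of the contrast in which they were high, and their calls support no difference. Myo18b was at most 0.475 FPKM in WM repopulating cells at 0 hr, where control microglia held 4.55, 3.88 and 3.54 FPKM.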

How the results depend on the processing

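The number of genes called at 6 hr stayed within 1.5 times of 5390 under every alternative run, from 4458 with only the 0 hr and 6 hr control libraries in the fit. Leaving out 1 control library gave 4594 to 5510 genes, and 2180 to 2588 past a log2 fold change of 1 in either direction, against 2381. That count was 3097 with a pseudocount of 0.1. The 3 genes of the interaction became 0 with only the groups compared in the fit, 1 with a pseudocount of 0.1, 0 with the replicate block and 0 to 3 when 1 library was left out, the cause of which was not tested. The replicate numbers share only a number, since same-numbered libraries at 0 hr and 6 hr had deviations correlated at 0.00064, -0.054 and 0.035, and the fit with this block called 5093 genes, 2468 of them past a log2 fold change of 1.

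Of 208 named genes, 169 kept their direction and side of the threshold in all 16 alternatives that concern them. With only the control 0 hr and 6 hr libraries in the fit, Acta2, Bid, C5ar2, Ccl2, Ccnd1, Fosb, Icosl, Ikbkg, Il15, Il6, Nfkb1, Nfkb2, Nlrp3, Relb, Socs3, Tlr3 and Tlr5 were not called and Spi1 was called, 3 instead of 5 genes of the Toll-like receptor list fell, and 2 instead of 1 of the MHC class I list. A pseudocount of 0.1 ended the call of Acta2, Ccl24, Ccl8 and Cnp, quantile normalization that of Dusp1, Icosl and Zfp36, and no filter on low values that of C5ar2, Cnp, Icosl, Nfkb1 and Socs6, of which all but Socs6 were also lost with no trend of the variance. Cd79a was called, at 1.69, with a pseudocount of 0.1. Under the replicate block Acta2, Ccl2, Ccl24, Ccl8, Cnp, Dusp1, Il15, Mmp9, Nfkb1, Socs6 and Zfp36 were not called and Ccl4 was. Slc1a3, not called, had a log2 fold change of 0.07, which became -0.018 after quantile normalization and -0.0081 to 0.13 when 1 control library was left out. Cspg4, not called in control microglia, changed from 0.05 to -0.14 after quantile normalization. Genes with few reads, such as Cspg4, are limited by depth.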
